A study of Mus musculus with 16 samples.

Results

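The cells described here are the resident, cross-presenting dendritic cells of a mouse neuroblastoma, defined as all cells that the authors had named CD11c+ resident DC in their deposited table of cells. They numbered 116 of 20376 cells. Of these, 65 came from KO sorted cells, 30 from WT sorted cells, 20 from KO tumor cells and 1 from WT tumor cells. They are set against the 352 cells named Myeloid DC and the 171 named Migratory DC in the same libraries.

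Dendritic cells take up antigen and show it to T cells. The cross-presenting kind, also called type 1 conventional dendritic cells, depends on the transcription factors IRF8 and BATF3 and is specialised in taking up dead cells and loading their proteins onto MHC class I, which CD8 T cells read. In tumors such cells are known for carrying tumor antigen to lymph nodes and for attracting and supporting CD8 T cells and NK cells.

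The tumors had been grown under the skin of male C57BL/6 mice, 8 weeks old, from NB9464D, a mouse neuroblastoma cell line, and collected on day 28. KO mice are CD200R-/- by the sample characteristics and CD200-/- by the growth protocol, a conflict in the labels, and WT mice are wild type. The gene of CD200R is Cd200r1. This receptor restrains myeloid cells when it meets CD200 on other cells, and the series title asks how it affects chemokine production by myeloid cells. Sorted libraries held CD45+ cells, the leukocytes, and tumor libraries held all cells, each after digestion with collagenase and capture by 10x Genomics 3' chemistry.

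The labels list 16 samples, 4 in each of the 4 groups, but each cell carries only the name of its group. Each group is therefore 1 library here, with no replicate spread and no test. Genotype cannot be told apart from differences between mice or preparations, and every interval below is a 95% interval for counting error only. The unit of counting is the unique molecular identifier (UMI), which stands for 1 captured RNA molecule. The resident cells held 1035547 UMIs in the KO sorted library, 826720 in the WT sorted library and 209916 in the KO tumor library. The single WT tumor cell held 12958 UMIs and enters no comparison of genes. Cells were shallower in the KO library, with a median of 16565 UMIs per KO sorted cell (1163 to 33954) and 22970 per WT sorted cell (14002 to 75910). Mitochondrial genes gave a median of 4.06% of the UMIs of KO sorted cells and 2.57% of those of WT sorted cells. The highest cell was at 24.2% in KO and 4.2% in WT. At least 10% was reached by 6 of 65 KO and 0 of 30 WT cells, and 18 KO and 0 WT cells held under 10000 UMIs. Of 113 barcodes that occurred in more than 1 library, 0 belonged to a resident dendritic cell.

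The cells that carried the name were high in the markers of the class, which describes the cells and does not test the name, since it may rest on these genes. Xcr1, the receptor for the chemokine XCL1 that NK and CD8 T cells release, was at 496 counts per 1000000 UMIs (CPM; 454 to 541) in KO sorted and 298 CPM (262 to 337) in WT sorted resident cells. In myeloid dendritic cells it was at 0.323 CPM in the KO library, or 1 UMI, and 0 UMIs were counted in the WT library. Migratory dendritic cells held 2 UMIs of Xcr1 in the KO library and 0 in the WT library. Resident cells were thus the one class of the 3 in which Xcr1 was more than a trace, and KO tumor cells of the class held 367 CPM of it.

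Clec9a, a receptor for the exposed actin of dead cells, was at 181 CPM in KO and 142 CPM in WT sorted resident cells, against 2.90 and 1.18 CPM in the myeloid class and 11.7 and 4.92 CPM in the migratory class. A UMI of Xcr1 or Clec9a was seen in 62 of 65 KO sorted cells (95.4%, Clopper-Pearson interval 87.1% to 99.0%) and in 28 of 30 WT sorted cells (93.3%, 77.9% to 99.2%). Wdfy4, a protein needed to cross-present cell-associated antigen, was at 837 CPM in KO and 422 CPM in WT sorted resident cells, against 120 and 51.3 CPM in myeloid and 59.5 and 8.20 CPM in migratory cells. Naaa, a lysosomal lipid amidase, was at 2465 and 1360 CPM in resident cells, 707 and 247 CPM in myeloid cells and 11.7 and 3.28 CPM in migratory cells. A UMI of both Wdfy4 and Naaa was seen in all 65 KO and all 30 WT sorted resident cells. In sorted B cells, which should lack Xcr1, 0.106% of 943 KO cells and 0 of 972 WT cells held a UMI of it.

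Not every marker set the class apart. Irf8 was at 2227 CPM in KO and 1464 CPM in WT sorted resident cells, far above the myeloid level of 100.3 and 91.9 CPM, but migratory cells also held 846 and 529 CPM. Batf3, the partner of IRF8, was at 223 and 168 CPM in resident cells and at 279 and 231 CPM in migratory ones. Flt3, the receptor of the growth factor that maintains dendritic cells, and Zbtb46, a factor of conventional dendritic cells, were likewise shared with the migratory class. Resident cells were therefore set apart from the myeloid class by Irf8 and Flt3, and from the migratory class by Naaa and Wdfy4.

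Markers of the other classes were low. The myeloid markers Cd209a, Mgl2, Clec10a, Sirpa, Itgam and Irf4 lay between 5.79 and 21.2 CPM in KO sorted and between 0 and 35.1 CPM in WT sorted resident cells. The migratory markers Ccr7, Fscn1, Ccl22, Cacnb3, Socs2 and Il4i1 lay between 0 and 23.2 CPM in KO sorted and between 0 and 10.9 CPM in WT sorted cells, whereas Ccr7, the receptor that guides dendritic cells to lymph nodes, was at 2674 and 2467 CPM in migratory cells. Klf4, listed as a myeloid marker, was at 346 and 171 CPM in resident cells and did not separate the classes. Of the plasmacytoid markers, Siglech was at 0.966 CPM in KO and at 0 UMIs in WT sorted resident cells, and Ccr9 was at 5.79 and 7.26 CPM. A list of 12 plasmacytoid genes summed to 190 CPM in KO and 195 CPM in WT sorted resident cells. It summed to 523 and 249 CPM in myeloid and to 706 and 380 CPM in migratory cells.

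**Figure D1:**
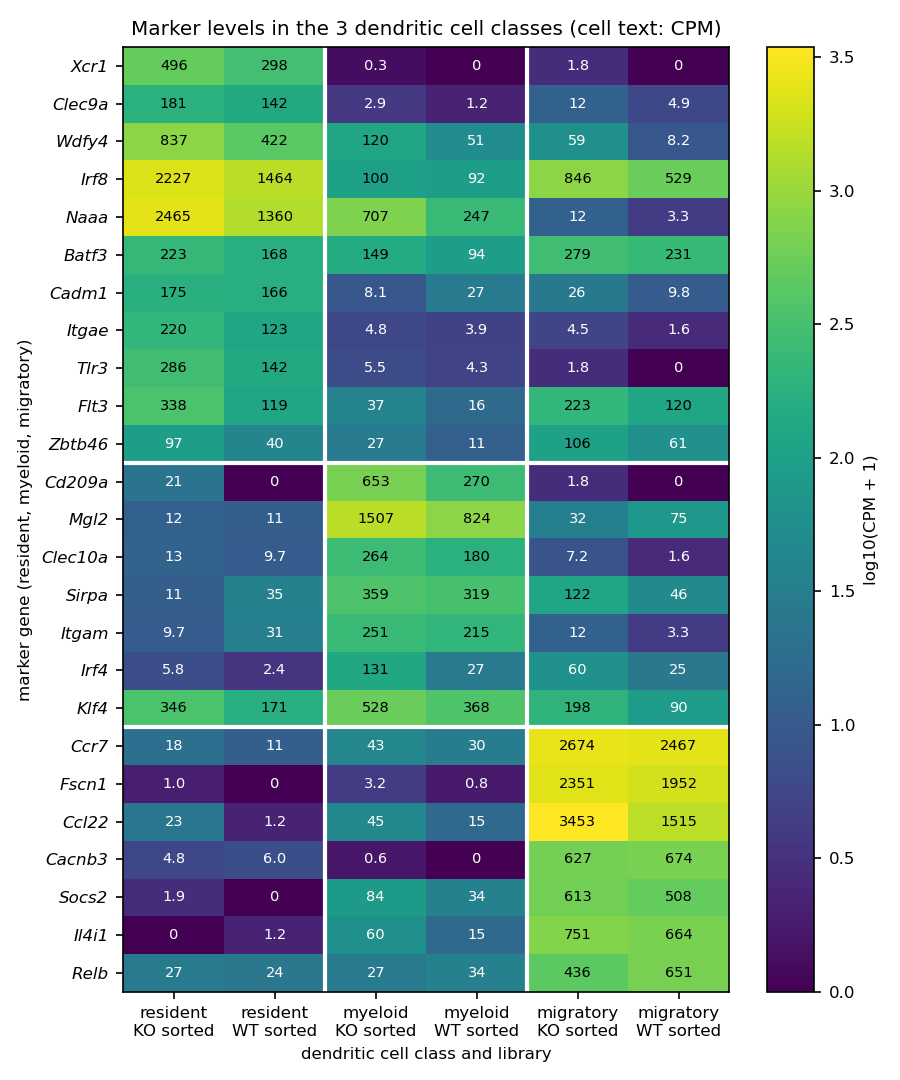
Level of 25 marker genes (rows, CPM, colour on a log10 scale) in resident, myeloid and migratory dendritic cells of the KO sorted and WT sorted libraries (columns). The upper left block, led by Xcr1, Clec9a, Itgae and Tlr3, is bright in resident cells of both genotypes, while Batf3, Zbtb46 and Klf4 are spread over the classes.

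The class can also be described across all genes. Since the names may rest on these same genes, this is a description and no test. Among 8102 genes with at least 50 UMIs, 61 (0.753%) were at least 4-fold higher in KO sorted resident cells than in both other classes, relative to the median gene, and 235 (2.9%) were at least 4-fold lower. Against the myeloid class alone, 107 of 7430 genes (1.44%) were 4-fold higher and 448 (6.03%) 4-fold lower. Against the migratory class alone, 230 of 5179 genes (4.44%) were 4-fold higher and 440 (8.5%) 4-fold lower. More genes were thus lower than higher in resident cells by this count. The minimum of 50 UMIs let in genes of the myeloid class at lower levels, since that class held 3100296 UMIs in the KO sorted library against 1035547 in resident cells. How far this sets the balance was not tested. In WT sorted cells 51 genes were higher and 89 lower than in both classes, and 26 of the higher genes were shared with the KO list, which is 42.6% of the KO list and 51.0% of the WT list. Of the 61 KO genes, 40 were measured in the WT library. The lower lists shared 41 genes, 17.4% of the KO list, of which 170 genes were measured in WT, and 46.1% of the WT list.

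The genes highest in the class were led by Xcr1 and Clec9a. Itgae, which encodes the integrin chain CD103, was at 220 CPM in KO and 123 CPM in WT sorted resident cells and at no more than 4.84 CPM in the other sorted classes. Tlr3, the endosomal receptor for double-stranded RNA, was at 286 and 142 CPM in resident cells and at no more than 5.48 CPM elsewhere. Snx22, a sorting nexin, was at 87.9 CPM (70.8 to 108) in KO and 46.0 CPM (32.5 to 63.1) in WT sorted resident cells, with 0 UMIs in the 4 other sorted groups. It was the one gene of the 15 leading ones that both other classes lacked in both libraries.

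Gcsam, a signaling adaptor first described in germinal centers, and Gpr141b, an orphan receptor, had 0 UMIs in sorted myeloid cells and traces in migratory cells. Ppt1, a lysosomal thioesterase, had the highest level of these 15 genes, with 875 CPM in KO and 604 CPM in WT sorted resident cells against 63.2 and 69.4 CPM in myeloid and 46.9 and 18.0 CPM in migratory cells. The transcription factor gene Mycl, the Wnt receptor gene Fzd1, the acyltransferase genes Agpat3 and Zdhhc23 and the ubiquitin ligase subunit gene Asb2 followed, at 55.0 to 114 CPM in KO and 33.9 to 103 CPM in WT sorted resident cells. The unnamed gene models Gm43914 and Gm36723 were at 109 and 105 CPM in KO cells and at 32.7 and 47.2 CPM in WT cells. Gm43914 lies within the span of Clec9a on the same strand, so its counts may include reads of Clec9a. Whether reads were counted by strand is not given in the sources used here, so reads of such models cannot be told apart from those of genes on the other strand either. All 15 were also detected in the KO tumor cells, at 33.3 to 534 CPM.

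The genes lowest in the class were ones that both other classes share. Fabp5, a fatty acid carrier, was at 12.6 CPM in KO and 206 CPM in WT sorted resident cells, against 876 and 1292 CPM in myeloid and 2506 and 4290 CPM in migratory cells. Tmem176a, which encodes a membrane protein, was at 2.90 and 3.63 CPM in resident cells, against 262 and 204 CPM in myeloid and 584 and 720 CPM in migratory cells. Il1rn, the antagonist of interleukin 1, Ptgs2, which encodes cyclooxygenase 2, Slc7a11, the cystine transporter, and the vitamin D receptor gene Vdr were each at or under 2.90 CPM in KO and 7.26 CPM in WT sorted resident cells. Several of these values were higher in WT cells, and so were macrophage transcripts, as given below.

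To show where the leading genes start, the windows from 250 bases before to 50 bases after the annotated start are printed for Xcr1 and Clec9a, which head the ranking, and for Wdfy4 and Naaa, which every sorted resident cell expressed. The sequences are from RefSeq, build GRCm38.p6, read 5′ to 3′ on the strand of the gene. Capitals mark matches, on either strand, to TTTC followed by TGA with 4 bases of any kind between them, and to GAAATGA, the cores of the 2 composite elements that BATF and IRF factors are known to bind together. The windows are chr9:123861980-123862279 (minus strand) for Xcr1, chr6:129408612-129408911 (plus) for Clec9a, chr14:33185017-33185316 (minus) for Wdfy4 and chr5:92278132-92278431 (minus) for Naaa.
Xcr1: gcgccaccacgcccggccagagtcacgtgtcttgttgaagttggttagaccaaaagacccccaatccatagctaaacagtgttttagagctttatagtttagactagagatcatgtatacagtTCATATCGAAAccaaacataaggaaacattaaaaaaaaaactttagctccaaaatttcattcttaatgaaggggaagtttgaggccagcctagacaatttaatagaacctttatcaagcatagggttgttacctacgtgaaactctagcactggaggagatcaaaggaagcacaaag
Clec9a: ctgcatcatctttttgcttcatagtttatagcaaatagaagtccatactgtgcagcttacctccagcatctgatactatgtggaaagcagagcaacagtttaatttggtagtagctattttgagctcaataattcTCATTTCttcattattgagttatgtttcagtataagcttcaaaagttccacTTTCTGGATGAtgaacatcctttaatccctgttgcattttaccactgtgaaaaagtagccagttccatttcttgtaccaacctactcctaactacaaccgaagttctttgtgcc
Wdfy4: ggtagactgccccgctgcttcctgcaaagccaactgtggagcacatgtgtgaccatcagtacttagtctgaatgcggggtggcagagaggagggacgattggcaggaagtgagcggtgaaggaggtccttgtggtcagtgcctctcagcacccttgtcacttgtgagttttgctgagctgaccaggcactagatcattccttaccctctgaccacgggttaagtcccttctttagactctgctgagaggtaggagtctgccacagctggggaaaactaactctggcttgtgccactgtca
Naaa: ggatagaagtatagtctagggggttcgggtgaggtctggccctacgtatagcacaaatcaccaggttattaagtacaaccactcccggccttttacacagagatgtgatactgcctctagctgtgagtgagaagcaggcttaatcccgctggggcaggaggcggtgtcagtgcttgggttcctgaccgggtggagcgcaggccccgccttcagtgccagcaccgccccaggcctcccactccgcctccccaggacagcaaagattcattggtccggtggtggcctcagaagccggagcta
Clec9a held a match to each of the 2 motifs, Xcr1 a match to the first, and Wdfy4 and Naaa none. Of the 15 leading genes 13 had a promoter in the table. The motif of TTTC and TGA matched in 4 of them (Xcr1, Clec9a, Gcsam and Asb2) and in 4.56% of 32851 promoters. GAAATGA matched in 1 and in 5.45% of all promoters. The AP-1 motif TGANTCA matched in 0 and in 7.81%, and a pair of GAAA with 2 bases between them, a core of interferon response elements, in 1 and in 3.44%. These are matches of letters, not measured binding sites.

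Machinery of antigen presentation was compared next. Of the 30 MHC class I and cross-presentation genes, 29 were measured against myeloid cells in the KO library, where 4 were 4-fold higher and 1 lower (1.44% and 6.03% of all genes), with a median log2 ratio of 0.32. Against migratory cells 0 of 29 were 4-fold higher and 3 lower (4.44% and 8.5% of all genes), with a median of -0.51. Tap1, a subunit of the peptide pump into the endoplasmic reticulum, was at 424 CPM in KO and 249 CPM in WT sorted resident cells, against 103 and 66.7 CPM in myeloid cells and 274 and 197 CPM in migratory cells. B2m, the light chain of MHC class I, was at 1289 and 853 CPM in resident cells, against 1684 and 1320 CPM in myeloid and 4746 and 3709 CPM in migratory cells. Resident cells thus held more of the pump than either class but the least of the light chain. Cd74, the invariant chain of MHC class II, was at 13794 and 17589 CPM in resident cells, 12832 and 16784 CPM in myeloid cells and 8593 and 10222 CPM in migratory cells.

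Costimulatory genes and cytokines were mostly lower in resident than in migratory cells. In the KO library 9 of 17 measured genes of costimulation and inhibition and 11 of 17 measured cytokine and chemokine genes were 4-fold lower than in migratory cells, where 8.5% of all genes were, with medians of -2.39 and -2.29. Il12b, the shared chain of interleukins 12 and 23, was at 19.3 CPM in KO and 8.47 CPM in WT sorted resident cells against 555 and 526 CPM in migratory cells. Ccl4, a chemokine for T cells and monocytes, went the other way, with 393 and 319 CPM in resident against 243 and 45.9 CPM in migratory cells. Btla, an inhibitory receptor, was at 391 and 121 CPM in resident, 22.9 and 6.31 CPM in myeloid and 53.2 and 18.0 CPM in migratory cells. Il12b was chosen after its values were seen.

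Genes of the cell cycle were present in part of the cells. A UMI of both Mki67 and Top2a, which mark cycling cells, was seen in 18 of 65 KO sorted cells (27.7%, 17.3% to 40.2%), 8 of 30 WT sorted cells (26.7%, 12.3% to 45.9%) and 7 of 20 KO tumor cells (35.0%, 15.4% to 59.2%). The 3 intervals overlap broadly. Summed over the 40 genes of the cell cycle list, single cells ranged from 1393 to 30098 CPM with a median of 4658 CPM in KO sorted cells, and from 1591 to 23671 CPM with a median of 4579 CPM in WT sorted cells. In the KO library 10 of the 28 measured cell cycle genes were 4-fold higher than in migratory cells (4.44% of all genes) and 0 of 40 than in myeloid cells (1.44%). In the WT library 21 of 28 were 4-fold higher than in migratory cells and 2 of 40 than in myeloid cells. The shares of all genes in these WT comparisons are not given here, so these counts cannot be set beside them.

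The class was not uniform for Cadm1, an adhesion molecule that binds a ligand on T and NK cells. It was seen in 30 of 65 KO sorted cells (46.2%, 33.7% to 59.0%), 21 of 30 WT sorted cells (70.0%, 50.6% to 85.3%) and 5 of 20 KO tumor cells (25%, 8.66% to 49.1%). KO sorted cells with a UMI of Cadm1 had a median of 20562 UMIs and those without 12599, against 23870 and 21672 in WT sorted cells, and the part of depth in this split was not tested. Within each sorted library Xcr1 was higher in cells with a UMI of Cadm1, at 651 CPM (587 to 720) against 293 CPM (245 to 348) in KO and at 359 CPM (314 to 409) against 101 CPM (61.7 to 156) in WT. Itgae followed the same order, with 279 against 143 CPM in KO and 138 against 75.8 CPM in WT. The scavenger receptor gene Cd36 did too, with 136 against 26.8 CPM in KO and 100.2 against 20.2 CPM in WT.

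Ccr2, a chemokine receptor of cells that enter tissue from blood, went the other way within the class. It was at 139 CPM (111 to 173) in KO sorted cells with Cadm1 and 434 CPM (375 to 499) in those without. In the WT library it was at 199 CPM (165 to 237) in cells with Cadm1 and 268 CPM (201 to 350) in those without, where the intervals overlap. Irf8, Naaa and Wdfy4 differed by less than 1.5-fold between cells with and without Cadm1 in each sorted library. The split was chosen after the values were seen and is descriptive.

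**Figure D2:**
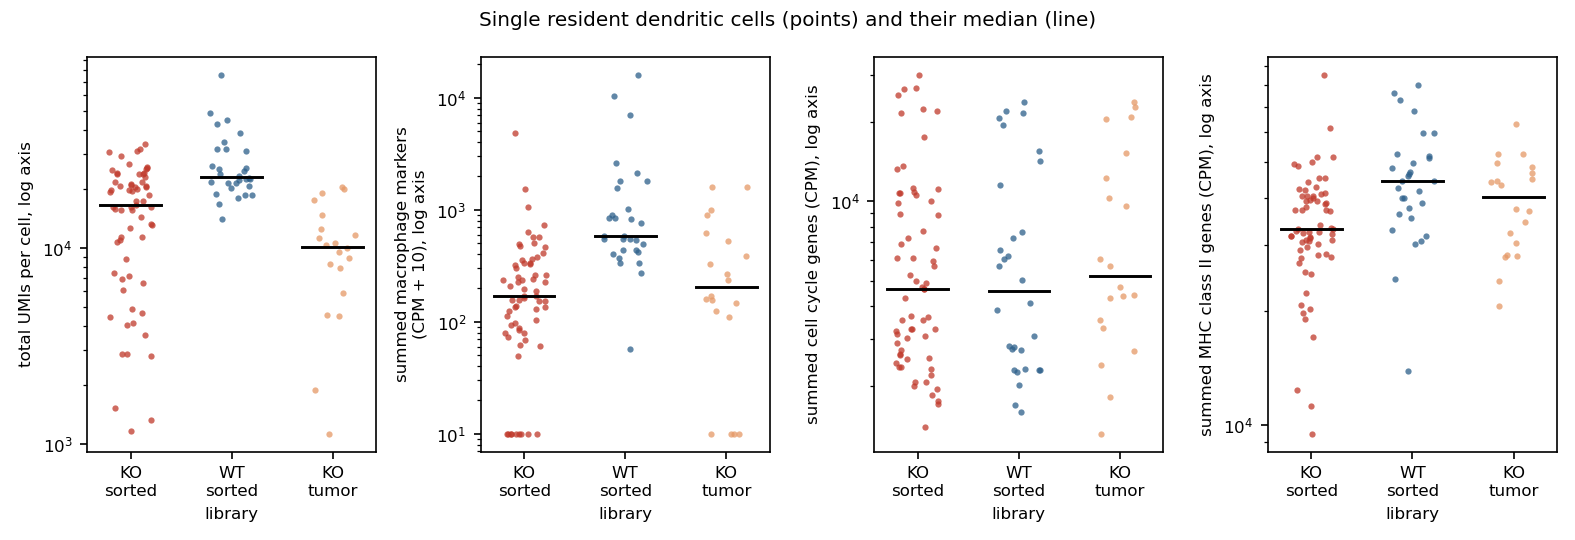
Each point is 1 resident dendritic cell of the KO sorted (65), WT sorted (30) or KO tumor (20) library, and the line is the median of the library. The panels show, on log axes, total UMIs, summed macrophage markers (CPM, with 10 added so that cells at 0 can be drawn), summed cell cycle genes and summed MHC class II genes (CPM). Macrophage markers are higher in WT sorted cells, with medians of 160 CPM in KO and 571 CPM in WT, and cell cycle genes spread alike.

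Resident cells made up a larger part of the KO sorted library. They were 65 of 4305 cells (1.51%, 1.17% to 1.92%) in the KO sorted library and 30 of 5219 cells (0.575%, 0.388% to 0.820%) in the WT sorted library, a ratio of 2.63 (1.68 to 4.19). In the tumor libraries they were 20 of 5897 cells (0.339%, 0.207% to 0.523%) in KO and 1 of 4955 cells (0.0202%, 0.000511% to 0.112%) in WT. The KO library thus held the larger share in both preparations, beyond counting error, with no measure of how far 2 libraries of 1 genotype differ.

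Among the named dendritic cells the difference was within counting error. Resident cells were 65 of 331 (19.6%, 15.5% to 24.3%) in the KO sorted library and 30 of 193 (15.5%, 10.7% to 21.4%) in the WT sorted library, and the interval of the ratio, 0.808 to 2.02, includes 1. Myeloid cells made up 53.2% and 60.6% of them, and migratory cells 27.2% and 23.8%. When cells of any name were counted by markers, 107 KO and 56 WT sorted cells qualified, of which 62 and 28 were the named ones.

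The genes of CD200R and CD200, between which the labels conflict, were read first. Cd200r1 had 0 UMIs in the 65 KO sorted resident cells, which by the limit of 3 counts allows a level of up to 2.90 CPM and a share of cells with a UMI of up to 4.62%, not a limit on cells that express the gene. In WT sorted resident cells it had 13 UMIs, 15.7 CPM (8.37 to 26.9), in 6 of 30 cells, and 1 cell gave 61.5% of them. That cell also held 125 UMIs of C1qb and 266 of Lyz2, both macrophage transcripts. Myeloid cells of the WT library held 76.2 CPM of Cd200r1 and migratory cells 6.56 CPM, and both classes had 0 UMIs of it in the KO sorted library. WT CD4 T cells held 10.3 CPM and WT B cells 0.959 CPM, or 3 UMIs. The interval in WT resident cells includes the level in T cells and lies above that in B cells. Cd200, the ligand gene, was at 22.2 CPM (14.1 to 33.3) in KO and 4.84 CPM (1.32 to 12.4) in WT sorted resident cells.

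Of 4605 genes with at least 50 UMIs over both libraries, 403 (8.75%) were at least 2-fold higher in KO than in WT sorted resident cells and 394 (8.56%) at least 2-fold lower. Ratios are log2 of the CPM in KO over WT, relative to the median gene, which by total UMIs lay 0.23 above 0. By total UMIs alone the split was 705 higher and 204 lower, so that the balance of directions rests on the scaling. The same procedure gave 387 higher and 391 lower of 8042 genes in myeloid cells, and 366 and 348 of 3990 in migratory cells.

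The genes higher in KO resident cells by the largest ratios were led by the gene model Gm42031 and by Slc30a4, a zinc exporter. Slc30a4 was at 108 CPM (89.1 to 130) in 50.8% of KO sorted cells and 8.47 CPM (3.40 to 17.4) in 20% of WT sorted cells, a log2 ratio of 3.44 (2.35 to 4.79). Gm42031 was at 101 CPM in KO and 7.26 CPM in WT, a log2 ratio of 3.57 (2.40 to 5.05). Both were higher in KO in every other class measured too, with log2 ratios of 2.93 and 3.91 in myeloid cells and 1.69 and 2.26 in B cells. Of the 12 named genes, 8 of the 11 with enough UMIs were also at least 2-fold higher in KO B cells, where 9.91% of all genes were.

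Some of the 12 were higher in KO resident cells by more than in their neighbours. Dtx3l, a ubiquitin ligase induced by interferon, was at 100.4 CPM (82.1 to 122) in KO and 15.7 CPM (8.37 to 26.9) in WT sorted resident cells, a log2 ratio of 2.44, against 0.62 in myeloid, 0.70 in migratory and 0.80 in B cells. Tnip3, which dampens NF-kB signaling, had a ratio of 2.47, against 0.42 in myeloid and 1.06 in migratory cells. Its level was 86.9 CPM in KO and 13.3 CPM in WT resident cells, below the 689 and 433 CPM of myeloid cells. B3gnt5, an enzyme of glycolipid synthesis, had 2.10 against -0.46 and -0.15, and Piezo1, a channel opened by stretch, 1.96 against -0.09 and 0.54. In B cells B3gnt5 was higher in KO too, at 1.11, and Piezo1 was at 0.79. The 12 had been picked for large ratios in resident cells, so smaller ratios in the other classes are in part set by the picking. The differences between classes were not tested.

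The others were Hyou1, a chaperone of the endoplasmic reticulum (2.41), the chromatin factor gene Msl2 (2.14), the scaffold gene Dlg1 (2.10), the repressor gene Etv6 (2.0), the phosphatase gene Cdc14a (1.95) and Tmem229b (2.56). Hyou1 was at 152 CPM (129 to 177) in KO and 24.2 CPM (14.8 to 37.4) in WT sorted cells. Its ratio was 1.27 in myeloid and 1.96 in B cells. In migratory cells the ratio was 3.63 (1.04 to 8.99), from few UMIs, at 25.2 CPM in KO and 1.64 CPM in WT. All 12, which had been picked from these same values for large ratios, remained at least 2-fold higher when KO cells shallower than the shallowest WT sorted cell were left out. When each cell was thinned to 2000 UMIs, 8 of the 12 did. The ratio was then 0.64 for Tnip3, 0.83 for Piezo1, 0.95 for Dlg1 and 0 for Tmem229b, and it was 1.15 for Slc30a4. Even before thinning the WT library held only 11 UMIs of Tnip3, 14 of Piezo1, 6 of Tmem229b and 7 of Slc30a4. Their thinned ratios rest on fewer still. A ratio of 0 can stand for a library with 0 UMIs after thinning and is no measure of equal levels.

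The 12 named genes lower in KO resident cells were mostly lower in KO cells of every class measured. Bnip3, a receptor for the removal of mitochondria that hypoxia induces, was at 9.66 CPM (4.63 to 17.8) in KO and 66.5 CPM (50.1 to 86.6) in WT sorted resident cells, a log2 ratio of -3.02. The metallothionein gene Mt1 was at 158 CPM in KO and 734 CPM in WT (-2.45). Ftl1, the light chain of ferritin, was at 1374 CPM in KO and 4317 CPM in WT (-1.88), and Ubb, a ubiquitin gene, at 540 and 1980 CPM (-2.11). In B cells Ftl1 had a ratio of -2.50, Ubb of -3.05 and Mt1 of -2.90.

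Of the 12 named lower genes, 11 were also at least 2-fold lower in myeloid cells, 9 in migratory cells, 10 of the 11 measured in B cells and 5 of the 5 measured in CD4 T cells. Of all genes, 4.86% were 2-fold lower in myeloid, 8.72% in migratory, 15.7% in B and 17.5% in CD4 T cells. These shares are over genes with at least 50 UMIs. That minimum was not applied to the named genes in myeloid and migratory cells, so their counts there are not strictly comparable. The remaining ones were Dtnbp1 (-2.43), the linker histone genes Hist1h1e (-2.22) and Hist1h1b (-2.13), the lysosomal gene Cd68 (-2.16), Ftl1-ps1 (-2.12), Fam162a (-2.11), the RNA polymerase subunit gene Polr2j (-2.0) and Cd300c2, a receptor of myeloid cells (-1.91). Reads of Ftl1 and its pseudogene Ftl1-ps1 can be hard to separate. In migratory cells Hist1h1b had a ratio of 1.53 (-0.62 to 4.72), whose interval includes 0. It rests on few UMIs, at 11.7 CPM in KO and 3.28 CPM in WT migratory cells.

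**Figure D3:**
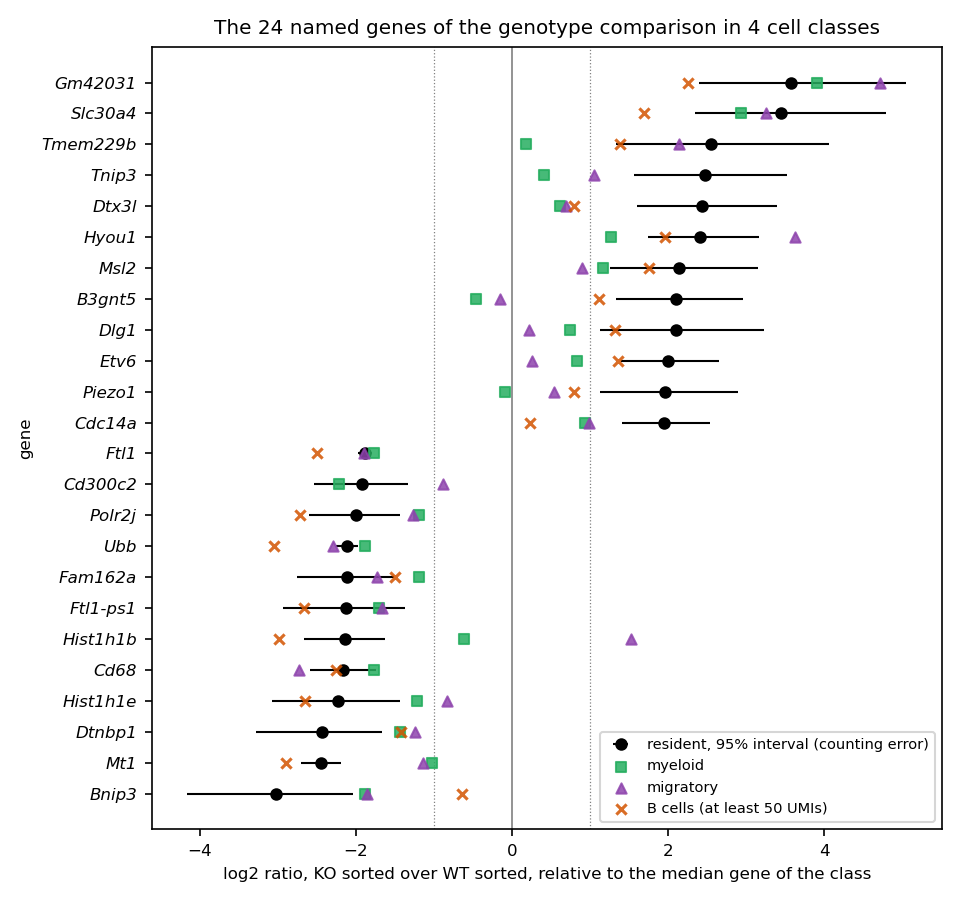
Log2 ratio, KO sorted over WT sorted, of the 12 named higher and the 12 named lower genes in resident dendritic cells (rows), with the counting interval for resident cells (black) and the ratio in myeloid, migratory and B cells (other symbols). Lower genes such as Ubb and Ftl1 lie left of 0 in all 4 classes, whereas Dtx3l, Tnip3, B3gnt5 and Piezo1 lie farther right in resident cells than in the others. The genes shown had been picked by their ratios in resident cells.

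Macrophage transcripts differed with genotype in these cells. All 8 measured macrophage markers of 12 listed were at least 2-fold lower in KO resident cells, with a median log2 ratio of -4.06. Genes with few KO UMIs could pass the minimum of UMIs only where WT UMIs were many. C1qa, with 10 KO and 197 WT UMIs, C1qb, with 10 and 272, and C1qc, with 9 and 159, passed in this way. The count of 8 is thus partly set by the minimum and cannot be set beside the 8.56% of all genes. Single WT cells gave 18.3% to 62.7% of the WT UMIs of these 8 markers. Without the cells that held at least 3 macrophage markers, 6 of the 8 were 2-fold lower, with a median of -1.51, and Mrc1 turned to 1.53. C1qb was then at -1.47, Lyz2 at -2.17 and Apoe at -1.09. The summed level of all 12 listed markers, which uses no minimum, was 258 CPM in KO and 2914 CPM in WT sorted cells. It was 305 CPM in KO tumor cells. C1qb, a chain of complement C1q, was at 9.66 CPM in KO and 329 CPM in WT cells, of which 1 cell gave 46.0%. Lyz2, or lysozyme, was at 88.8 CPM in KO and 1283 CPM in WT cells. At least 3 macrophage markers were held by 1 of 65 KO and 5 of 30 WT cells, and cells named myeloid carried the same transcripts at higher levels.

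These transcripts were also more frequent in lymphocytes of the WT library. Lyz2 was at 21.5 CPM in KO and 156 CPM in WT sorted B cells, and at 21.9 and 155 CPM in CD4 T cells. NK cell markers summed to 18.3 CPM in KO and 714 CPM in WT resident cells, T cell markers to 77.3 and 235 CPM, and platelet markers to 7.73 and 140 CPM. Of the WT UMIs of Gzma, a granzyme gene on the NK list, 1 cell gave 99.7%. At least 3 markers of a lineage that is not myeloid were held by 4 of 65 KO and 5 of 30 WT sorted cells. What these transcripts contribute to other differences was not tested. Without the cells that held macrophage markers all 24 named genes stayed at least 2-fold apart in the same direction, which leaves in place such RNA in the other cells. The 24 had been picked from these same values for large ratios not resting on 1 cell, so this outcome was nearly fixed in advance.

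Genes of cross-presenting identity were on the whole slightly higher in KO cells. Of 38 listed genes 35 were measured, 31 had a ratio above 0, and the median log2 ratio was 0.60, against 0.46 for those measured in myeloid and 0.40 in migratory cells. Btla (1.46, 1.14 to 1.79), Flt3 (1.28, 0.95 to 1.62), the integrin gene Itgax (1.04, 0.52 to 1.58), which encodes CD11c, and Zbtb46 (1.04, 0.46 to 1.66) passed 2-fold upward. Cst3, an inhibitor of cysteine proteases, and Cxcr3, the receptor for interferon-induced chemokines, passed it downward, as given next. This is 4 of 35 higher and 2 lower, near the 8.75% and 8.56% of all genes.

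Cxcr3 was at 28.0 CPM (18.8 to 40.2) in 30.8% of KO sorted cells and 65.3 CPM (49.1 to 85.2) in 73.3% of WT sorted cells, a log2 ratio of -1.45 (-2.16 to -0.78). When each cell was thinned to 2000 UMIs the ratio was 0.83, from few counts. Cst3 was at 14627 CPM in KO and 25354 CPM in WT cells (-1.03), with -1.02 in myeloid and -1.45 in migratory cells. The 4 defining markers lay under 2-fold, with 0.51 (0.28 to 0.73) for Xcr1, 0.75 (0.57 to 0.94) for Wdfy4, 0.37 (0.27 to 0.47) for Irf8 and 0.63 (0.52 to 0.73) for Naaa. Clec9a had a ratio of 0.12 (-0.22 to 0.46), whose interval includes 0.

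Genes of MHC class I presentation did not move together. Of 26 measured, 3 were 2-fold higher and 1 lower in KO (8.75% and 8.56% of all genes), with a median of -0.04, and the count is near that of all genes. Tapbp, or tapasin, which loads peptide onto MHC class I, was at 381 CPM (345 to 421) in KO and 157 CPM (131 to 187) in WT cells (1.05). Lnpep, an endosomal peptidase used in cross-presentation, had a ratio of 1.22 (0.75 to 1.70), and the trimming peptidase gene Erap1 of 1.10 (0.34 to 1.93). Psmb8, a subunit of the immunoproteasome, was at 723 CPM (672 to 777) in KO and 1409 CPM (1329 to 1492) in WT cells (-1.20), with the same ratio of -1.20 in myeloid cells and -1.67 in migratory cells.

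Of 14 MHC class II genes measured, 0 were 2-fold higher and 2 lower, against 8.75% and 8.56% of all genes, with a median of -0.37, a count near that of all genes. The lower genes were the proteases Ctsl (-2.68) and Lgmn (-2.20), which macrophages also express. In WT cells 1 cell gave 58.1% of the Ctsl UMIs, and without the cells holding macrophage markers the ratios were 0.05 and -0.49. H2-Aa, at 6454 CPM in KO and 7360 CPM in WT, and Cd74 (-0.58) differed by less than 2-fold.

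The interferon genes were few and uneven. Of 10 measured genes of the type I interferon response, 3 were 2-fold higher and 0 lower in KO resident cells (8.75% and 8.56% of all genes), with a median of 0.63. The median was -0.27 over the 22 genes measured in myeloid cells and -0.32 over the 13 measured in migratory cells. These medians are over different sets of genes. Stat2, which transmits the interferon signal, had a ratio of 1.44 (0.61 to 2.37), with 1.42 in myeloid cells. Ly6a (2.32) and Ifi204 (1.51) were the other 2, and 1 cell gave 57.3% of the Ly6a UMIs of the KO library. Ifi27l2a had a ratio of -0.64, and of 0.70 after thinning. Among the measured targets of interferon gamma, Irgm1 passed 2-fold (1.18) and Irf1 (0.53) did not.

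Transcription factors of dendritic cells held 5 of 19 genes 2-fold higher and 1 lower (8.75% and 8.56% of all genes), with a median of 0.46. Besides Etv6 and Zbtb46 these were Bcl11a (1.47), Notch2 (1.26), which is a receptor listed with them, and Zfp366 (1.18), and the lower one was Klf2 (-1.05, -1.21 to -0.89). Bcl11a, a factor of dendritic and B cell development, had ratios of 2.19 in myeloid and 1.63 in migratory cells. Of the growth factor and chemokine receptors, Csf2rb, the shared chain for GM-CSF, was at 166 CPM (142 to 193) in KO and 54.4 CPM (39.7 to 72.8) in WT cells (1.38), against 0.17 in myeloid and -0.48 in migratory cells. After thinning to 2000 UMIs the ratio of Csf2rb in resident cells was -0.0544.

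The series asks about chemokines, and few were measured in resident cells. Of 8 measured cytokine and chemokine genes, 0 were 2-fold higher and 5 lower in KO, with a median of -1.19. Genes with few KO UMIs, such as Ccl5 with 8 KO and 84 WT UMIs, passed the minimum only through the WT library. Cxcl9, with 33 KO UMIs and 1 WT UMI, missed it. The counts and the median are thus partly set by the minimum and cannot be set beside the 8.75% and 8.56% of all genes. Ccl4, the most abundant chemokine of the list, was at 393 CPM (356 to 433) in KO and 319 CPM (282 to 360) in WT sorted cells, a ratio of 0.07 (-0.16 to 0.30), and at 486 CPM in KO tumor cells. Il1b, the gene of interleukin 1 beta, was at 202 CPM (175 to 231) in KO and 394 CPM (353 to 440) in WT cells (-1.20, -1.46 to -0.94). Cxcl16 had a ratio of 0.53.

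The lower chemokines differed in how many cells carried them. Ccl5 was at 7.73 CPM in KO and 102 CPM in WT cells (-3.95), and 1 WT cell gave 84.5% of its WT UMIs. Ccl3 was at 7.73 CPM in KO and 59.3 CPM in WT cells (-3.17, -4.46 to -2.08), in 9.23% and 40.0% of the cells, and at 66.7 CPM in KO tumor cells. Ccl6 had a ratio of -2.06 and Il18 of -1.19. Cxcl9, a chemokine for T cells that carry CXCR3, was at 31.9 CPM in KO and 1.21 CPM in WT cells, but 1 KO cell gave 78.8% of its 33 UMIs there.

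Genes of hypoxia and glycolysis were lower in KO cells as a group. Of 19 measured, 9 were 2-fold lower and 0 higher (8.56% and 8.75% of all genes), with a median of -0.99. Gapdh was at 1113 CPM (1050 to 1180) in KO and 2573 CPM (2465 to 2685) in WT cells (-1.44), Pkm at 399 and 801 CPM (-1.24) and Ldha at 632 and 992 CPM (-0.88), all glycolytic enzymes. The same list had medians of -1.02 in myeloid cells, -1.29 in migratory cells, -1.04 in B cells and -1.10 in CD4 T cells. The lower level was therefore seen in all 5 sorted classes examined.

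Ribosomal protein genes behaved alike, with 15 of 83 measured genes 2-fold lower and 0 higher in KO resident cells (8.56% and 8.75% of all genes) and a median of -0.61. Their medians were -0.67 in myeloid, -0.63 in migratory, -1.28 in B and -1.32 in CD4 T cells. Early response and heat shock genes, which tissue digestion induces, gave 2 of 22 higher and 4 lower in KO (8.75% and 8.56% of all genes), with a median of -0.29. Egr1 (1.64) and Nr4a1 (1.48) were the higher ones and Dnajb1 (-1.68), Jun (-1.52), Socs3 (-1.36) and Ier3 (-1.07) the lower ones.

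The cell cycle list was lower in KO resident cells by summed counts. Of 38 measured genes 16 were 2-fold lower and 0 higher, against 8.56% and 8.75% of all genes, and the median was -0.79. It was -0.05 over the 40 genes measured in myeloid cells and -0.08 over only 9 in migratory cells. The lower genes were mostly those of mitosis. Ube2c, which drives exit from mitosis, was at 51.2 CPM (38.3 to 66.9) in KO and 225 CPM (194 to 260) in WT cells (-2.37), but 1 WT cell gave 46.2% of it and KO tumor cells held 410 CPM. The replication gene Mcm2 was at 77.3 CPM in KO and 38.7 CPM in WT cells (0.76). The share of cells with Mki67 and Top2a, given above, was nearly equal in the 2 libraries.

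**Figure D4:**
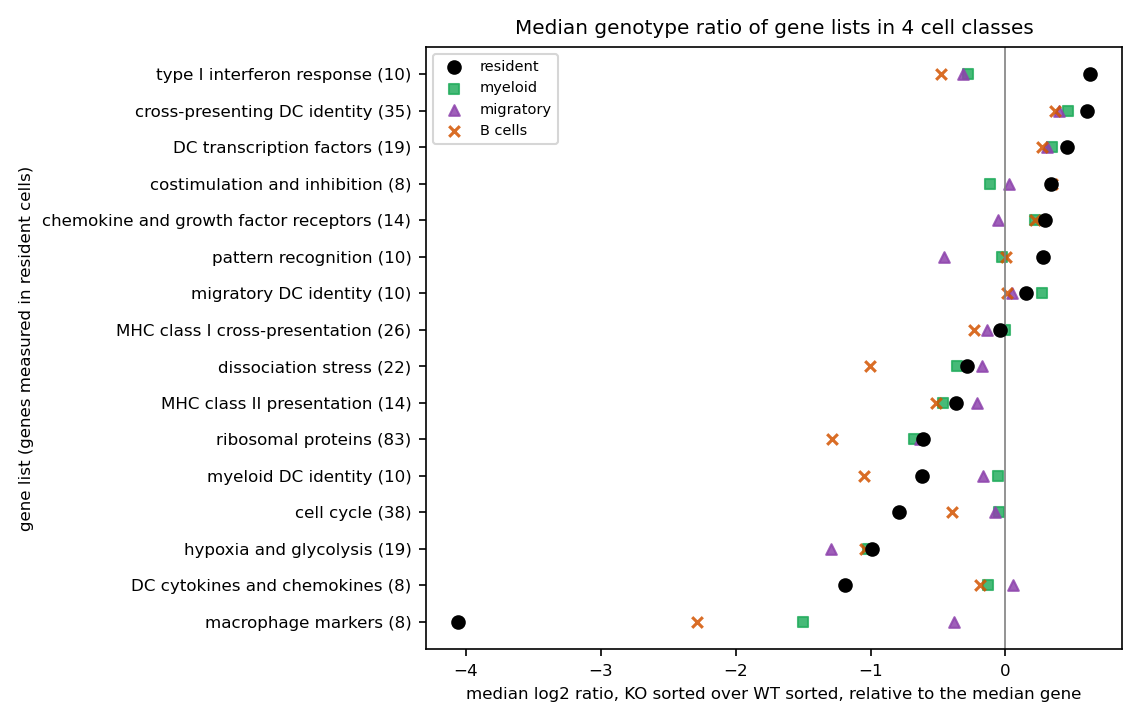
Median log2 ratio, KO sorted over WT sorted, of each gene list with at least 8 genes measured in resident dendritic cells (rows, number of genes in parentheses), in resident, myeloid, migratory and B cells (symbols). Each median is over the genes measured in that class, which differ between classes. Hypoxia and glycolysis and ribosomal protein genes lie below 0 in all 4 classes, the cell cycle and cytokine lists lie farther below 0 in resident cells than in the other 3, and the cross-presenting identity and transcription factor lists lie above 0 in all 4.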

How the data were processed

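Natural log values per gene and cell, ln(1 + 10000 × UMIs of the gene / UMIs of the cell), had been deposited by the authors, with a table of total counts, cell names and group names per cell. Per the submitters' processing notes, Seurat 4.0.5, Cell Ranger 6.0.1 and the build mm10 were used. How the authors filtered and named cells is not given in the sources used here. Turned back with the total of its cell, each of the 60957742 values above 0 came out as a whole UMI count within 0.01, and the sums of all 20376 cells matched.

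Counts were summed per class and library over 19715 genes with Python 3.11.15, numpy 2.4.6, scipy 1.17.1 and pandas 2.3.3. Ratios were taken where both groups together had at least 50 UMIs and are relative to the median gene. The ratios of named genes in myeloid and migratory cells were not held to this minimum. All intervals are exact and at 95%: the Poisson interval for a CPM, the Clopper-Pearson interval for a share, and for a ratio the binomial interval given the sum of both counts. A count of 0 was read as up to 3 counts. Ratios between classes were called at 4-fold and between genotypes at 2-fold. No cell was removed as a doublet in the main values. The procedure was tested on simulated counts with 200 genes changed 4-fold. Coordinates follow GRCm38.p6, which is mm10.

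Named genes were the class markers, the 15 genes highest and 10 lowest in the class, the 12 highest and 12 lowest between genotypes (at least 50 CPM, in at least 25% of cells, no cell giving over 25% of the UMIs), the leading and extreme members of 26 lists, and Cd200r1 and Cd200. Others were named after their values were seen. The members, lists and rule were chosen with earlier results of these data known.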

Additional observations from a re-analysis of the deposited data

Results flagged for a closer look

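Lymphocyte transcripts went in opposite directions in the classes: their log2 ratio, KO over WT, was negative in resident cells and positive in another class. The difference between classes was not tested, and single cells carried much of the WT counts in resident cells. Trbc2, a T cell receptor constant chain, had a ratio of 2.53 in migratory cells against -2.95 in resident cells, where 1 cell gave 40.5% of its 42 WT UMIs. Nkg7, a gene of cytotoxic granules, had 3.09 in migratory cells against -5.75 in resident cells, where 1 cell gave 72.6% of the WT UMIs. The granzyme gene Gzma had 5.57 in migratory cells against -8.17 in resident cells, where 1 cell gave 99.7% of the WT UMIs. Gzmb, another granzyme gene, had 2.91 in myeloid cells and at least 3.05 in migratory cells, with 0 WT UMIs there, against -4.84 in resident cells, where 1 cell gave 97.4% of the WT UMIs.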

How the results depend on the processing

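No paired analysis was possible because cells carry no sample of their own. In the tumor libraries the ratio of shares, KO over WT, was 16.8 among all cells and 3.23 among named dendritic cells, where WT has 1 cell. In the sorted libraries the 2 ratios were between 2.32 and 2.98 and between 1.16 and 1.47 under the other settings (stricter cells, no doublet-like dendritic cells, class by markers). The 403 genes higher and 394 lower in KO became 705 and 204 by total UMIs, 793 and 740 with at least 20 UMIs, 222 and 208 with at least 100, 1471 and 1410 with no minimum, and 890 and 718 after thinning to 2000 UMIs, which leaves out 3 KO cells. They were 343 and 312 over cells no shallower than the shallowest WT sorted cell and 375 and 314 without cells holding macrophage markers, both settings chosen after seeing the data. The 61 genes higher in the class became 95 with at least 20 UMIs and 40 without macrophage-marker cells. The 235 lower became 101 after thinning, 121 without macrophage-marker cells and 89 in WT sorted cells. Directions turned for Trbc2 (0.81) and Gzmb (0.81) without doublet-like cells, Gzma (0.34) and Gzmb (0.34) without the deepest cell, Ctsl (1.42), Csf2rb (-0.0544) and Cxcr3 (0.83) after thinning, Ctsl (0.0477) without macrophage-marker cells, and, after thinning, for the median log2 ratio KO over WT of myeloid DC identity (0.0262). In all, 41 of 981 values of named genes and 6 of 191 list medians had the other sign under an alternative, 9 and 2 of them after thinning, and 6 values of named genes were 0. The cause was not tested, and 30 WT cells limit every ratio.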

Other observations

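Kit and Tlr11 were further genes of the class outside the leading 15, both chosen after their values were seen. Kit, the receptor for stem cell factor, was at 75.3 CPM in KO and 37.5 CPM in WT sorted resident cells, against 6.13 and 7.50 CPM in myeloid and 24.3 and 9.83 CPM in migratory cells. Tlr11, a receptor for the protein profilin of certain parasites, was at 43.5 and 29.0 CPM in resident cells, 1.61 and 1.58 CPM in myeloid cells and 5.41 and 0 CPM in migratory cells. The receptor gene Cd8a, carried by the related cells of the spleen, was seen in 6 of 65 KO sorted cells (9.23%, 3.46% to 19.0%) and 6 of 30 WT sorted cells (20%, 7.71% to 38.6%). In KO tumor cells it was seen in 0 of 20, which by the limit of 3 counts allows up to 15% of cells with a UMI.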
